A study of Mus with 8 samples.

Results

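Messenger RNA of 10 genes of heparin-binding growth factor signalling was followed in subcutaneous mouse tumours. The genes were the platelet-derived growth factors Pdgfa, Pdgfb, Pdgfc and Pdgfd, their receptors Pdgfra and Pdgfrb, hepatocyte growth factor (Hgf) and its receptor Met, midkine (Mdk) and pleiotrophin (Ptn). They were chosen by name as members of these signalling families, not by a cut on their values. Earlier results of these data were known when the genes were chosen. All 10 of them had probes on the array, of 22911 genes that could be named there, and all 10 could be tested. They had 16 probes in all, each of them well above background on enough arrays to be kept.

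MC38, a colon cancer line of the mouse, had been transplanted under the skin of 4 wild-type B6 mice (WT host) and 4 mice with Ext1 flox/flox and S100a4-Cre (Ext1S100a4Cre host). Tumours were taken after 25 to 30 days and RNA came from the whole tumour. Some label fields of the second group name only S100a4Cre, and the group follows the sample titles. Ext1 encodes a polymerase of heparan sulfate, and the S100a4 promoter drives the Cre in fibroblasts but is also known to work in certain leukocytes. The labels describe the WT host only as wild type, so Cre and the floxed alleles are named for 1 group only, and no allele of the transplanted cells is described. The labels give no age or sex of the hosts. Because whole tumours were measured, fewer cells of a type and less RNA per cell cannot be told apart. Each host group had 4 mice, and their tumours are the units over which differences between hosts were tested.

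The growth factors of these families bind heparan sulfate, which holds them near the cell surface and the matrix and can present them to their receptors. PDGF ligands act as dimers on receptor tyrosine kinases of fibroblasts, pericytes and other mesenchymal cells. HGF is secreted mostly by mesenchymal and some myeloid cells as an inactive precursor, is cleaved by serine proteases and activates the receptor tyrosine kinase MET on epithelial and other cells. Midkine and pleiotrophin are small basic cytokines related to each other, with the receptor phosphatase PTPRZ1, the kinase ALK, LRP1 and syndecans among their described receptors.

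Levels are log2 intensities relative to the 75th percentile of the array, so they compare tumours for a given probe and not genes with each other. Differences are Ext1S100a4Cre host minus WT host on the log2 scale, with limma's standard error (SE), and groups are given as mean ± SD with n = 4 tumours. That percentile lay between 846.9 and 1265 on the 8 arrays, lowest for Ext1S100a4Cre host tumours 4 and 1. Those 2 arrays also had the fewest probes well above background, 65.96% and 65.66%, where the other 6 had 68.84% to 71.1%. The Y-linked gene Eif2s3y was at -8.15 in Ext1S100a4Cre host tumour 4 and -8.53 in tumour 1 and between -2.25 and -0.40 elsewhere. Ddx3y, also Y-linked, was at -8.52 and -8.62 in these tumours and between -5.365 and -3.368 elsewhere. If host sex differed, it could not be told apart from host for these 2 tumours, and its part in the results was not tested. Some fits below leave out both. Ext1 itself differed by -0.28 (SE 0.18, limma adjusted p = 0.747), and the labels do not say whether its probe lies in the floxed part. Of the marker lists, skeletal muscle (7 tested genes, 7 higher) averaged 0.13 and 0.96 in Ext1S100a4Cre host tumours 2 and 3 but -4.35 to -3.45 elsewhere. Erythrocyte genes (5 of 5 higher, median 2.18), T and NK cell genes (6 of 6 lower, median -1.18), B-cell genes (3 of 5 lower, median -1.06), Schwann cell genes (5 of 6 lower, median -0.37) and keratinocyte genes (2 of 4 lower, median 0.12) made up the remaining lists. Myh4, Krt1, Itga2b and Gp1ba had no probe bright enough on 4 arrays to be tested.

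No member passed limma's test after adjustment over all genes, and the same held for the whole array. At an adjusted p under 0.05, 0 of 10 members and 0 of 31281 genes were called (0%), with member values from 0.747 to 0.989. At unadjusted p under 0.05 there was 1 member, Met, which was lower in the Ext1S100a4Cre host, where 2.16% of all genes were that low and 6.55% passed in either direction. The mean was lower in the Ext1S100a4Cre host for 8 of 10 members and higher for Pdgfa and Mdk, with a median difference of -0.30. Over all genes 41.9% had a lower mean, and the median difference was 0.05. For 0 of 10 members did the hosts separate without overlap, against 4.52% of all genes, 1.14% lower and 3.38% higher in the Ext1S100a4Cre host. The number of members with a lower mean was 7 with median scaling and 9 with quantile scaling. Without Ext1S100a4Cre host tumours 1 and 4, 5 of 10 members had a lower mean against 49.9% of all genes, and their median difference was -0.03.

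**Figure D1:**
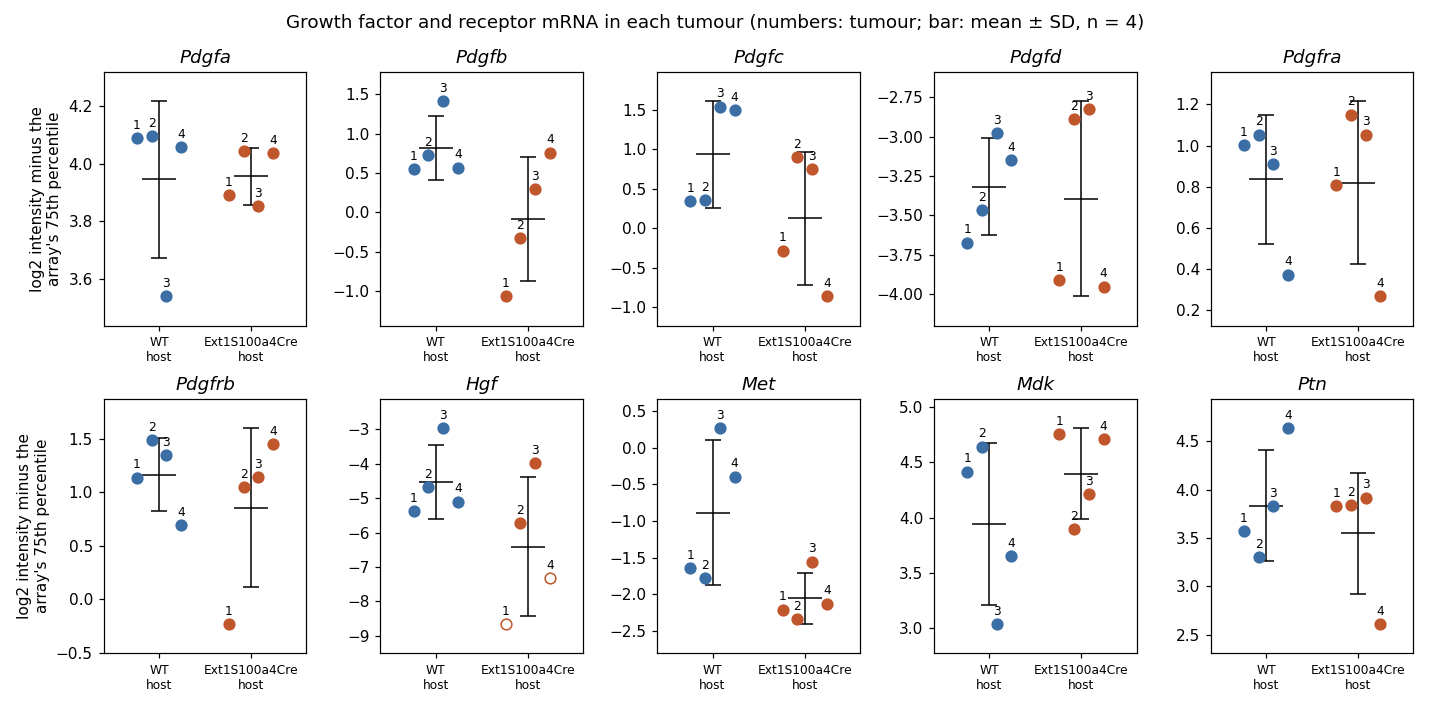
Level of each of the 10 genes in each tumour, as log2 intensity minus the 75th percentile of the array, with 1 point per tumour, its number above it, and a bar for the mean ± SD of the 4 tumours of a host. Open points are not well above background (Hgf in Ext1S100a4Cre host tumours 1 and 4), and the hosts overlap for every gene.

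Among the PDGF ligands, Pdgfb and Pdgfc had lower means in the Ext1S100a4Cre host, while the means of Pdgfa and Pdgfd differed by 0.01 and -0.08. Pdgfb, made by endothelial cells and platelets and needed to recruit pericytes to vessels, measured 0.55, 0.73, 1.41 and 0.57 in WT host tumours 1 to 4. In Ext1S100a4Cre host tumours 1 to 4 it measured -1.07, -0.33, 0.29 and 0.76. Tumours 1, 2 and 3 of the Ext1S100a4Cre host lay below every WT host tumour, whereas tumour 4 exceeded 3 of them. The means were 0.81 ± 0.41 and -0.09 ± 0.79, a 1.87-fold lower level in the Ext1S100a4Cre host. The difference of -0.90 (SE 0.40, 95% interval -1.81 to 0.01) did not pass limma's test (p = 0.0521, adjusted p = 0.747), and its exact permutation p was 0.114. Without Ext1S100a4Cre host tumour 1 it was -0.57, and within slide rows 1 and 2, which held 2 tumours of each host, it was -1.34 and -0.47.

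Markers of likely sources of Pdgfb were measured beside it. The mean of 8 endothelial markers (7 of 8 lower, median -0.42) ran from -0.31 to 0.35 in the WT host. In the Ext1S100a4Cre host it ran from -1.68 to 0.00, lowest in tumour 1. Pdgfb and the fibroblast (-1.68), macrophage (-1.58) and pericyte (-1.27) means were lowest there too. In tumour 4 of that host Pdgfb was 0.76 and the endothelial mean -0.31, and in tumour 2 they were -0.33 and 0.00. Pdgfb correlated with the macrophage mean at r = 0.833 (exact permutation p = 0.016, adjusted 0.0975). Without WT host tumour 3 and Ext1S100a4Cre host tumour 1, r was -0.00118. The mean of 4 platelet markers ran from -3.76 to -2.61 in the WT host and from -4.14 to -2.51 in the Ext1S100a4Cre host, with 2 of 4 lower and a median of 0.10. Their part in the result was not tested.

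Pdgfc encodes a ligand that becomes active once its CUB domain is cut off by proteases such as tissue plasminogen activator. It measured 0.34, 0.36, 1.54 and 1.49 in the WT host and -0.28, 0.90, 0.75 and -0.86 in the Ext1S100a4Cre host. The 2 highest values belonged to WT host tumours 3 and 4 and the 2 lowest to Ext1S100a4Cre host tumours 1 and 4, and between them Ext1S100a4Cre host tumours 2 and 3 exceeded WT host tumours 1 and 2. The means were 0.93 ± 0.67 and 0.13 ± 0.84, a difference of -0.81 (SE 0.47, adjusted p = 0.747 in limma, exact permutation p = 0.171). WT host tumours 1 and 2, on slide row 1, and tumours 3 and 4, on row 2, formed separate pairs, and the difference was -0.04 within row 1 and -1.57 within row 2. Without Ext1S100a4Cre host tumour 4 it was -0.48.

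Pdgfd, the ligand that acts mainly on the beta receptor and also needs cleavage, split the Ext1S100a4Cre host. It measured -3.67, -3.46, -2.98 and -3.15 in the WT host and -3.91, -2.89, -2.83 and -3.95 in the Ext1S100a4Cre host. Tumours 2 and 3 of the latter had the highest values of all 8 tumours and tumours 1 and 4 the lowest, so that the WT host lay between them. The difference was -0.08 (SE 0.31, adjusted p = 0.953 in limma), it turned to 0.05 with normexp background correction, and without tumours 1 and 4 it was 0.46 (adjusted p = 0.882).

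Pdgfa, whose product acts on the alpha receptor, hardly varied. It measured 4.09, 4.09, 3.54 and 4.06 in the WT host and 3.89, 4.04, 3.85 and 4.04 in the Ext1S100a4Cre host. WT host tumour 3 was the lowest of all 8, and the other 3 WT host tumours lay just above all 4 Ext1S100a4Cre host tumours. The difference was 0.01 (SE 0.16) with a 95% interval of -0.35 to 0.38, and its sign turned with quantile scaling (-0.09). Its second probe gave -0.05, and the 2 probes correlated at 0.936 over the 8 tumours.

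The means of the PDGF receptor genes Pdgfra and Pdgfrb differed between hosts by -0.02 and -0.31. Pdgfra, the alpha receptor and a marker of fibroblasts, measured 1.00, 1.05, 0.91 and 0.37 in the WT host and 0.81, 1.15, 1.05 and 0.27 in the Ext1S100a4Cre host. Tumour 4 was the lowest in either host, and the other tumours overlapped closely. The means were 0.84 ± 0.31 and 0.82 ± 0.40, a difference of -0.02 (SE 0.24, 95% interval -0.57 to 0.53, adjusted p = 0.989 in limma), which turned to 0.01 with median scaling. Over 12 other fibroblast markers, among them the collagen genes Col1a1 and Col3a1, the median difference was -1.75, and 11 of 12 were lower. The mean of those 12 ran from 1.71 to 4.04 in the WT host and from -1.68 to 2.78 in the Ext1S100a4Cre host, with WT host tumour 3 highest and Ext1S100a4Cre host tumour 1 lowest. Pdgfra in these same 2 tumours was 0.91 and 0.81.

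Pdgfrb, the beta receptor of pericytes and fibroblasts, was low in a single tumour. It measured 1.14, 1.49, 1.34 and 0.70 in the WT host and -0.23, 1.05, 1.14 and 1.45 in the Ext1S100a4Cre host. Tumour 1 of the Ext1S100a4Cre host lay below all others, and its other 3 tumours fell within the range of the WT host. The difference was -0.31 (SE 0.37, adjusted p = 0.823 in limma), and without that tumour it was 0.05. The mean of 10 pericyte and smooth muscle markers (8 of 10 lower, median -0.20) was -1.27 in that tumour, -0.44 to 0.00 in the other 3 of its host and -0.72 to -0.09 in the WT host. Over the 8 tumours Pdgfrb and the ligand gene Pdgfb correlated at 0.807, a description that includes Ext1S100a4Cre host tumour 1, the lowest for both.

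Hgf had the widest range of the 10 genes and lower values in the Ext1S100a4Cre host, where it reached background in 2 tumours. It measured -5.37, -4.69, -2.97 and -5.10 in the WT host, well above background in 4 of 4 tumours. In the Ext1S100a4Cre host it measured -8.65, -5.72, -3.97 and -7.32 and was well above background in tumours 2 and 3 only. WT host tumour 3 was highest, Ext1S100a4Cre host tumour 3 came next, and the other 3 of that host were the lowest of all 8. The means were -4.53 ± 1.08 and -6.41 ± 2.02, so the second mean rests partly on background readings. The difference of -1.88 (SE 0.99, 95% interval -4.16 to 0.40) did not pass limma's test (p = 0.0939, adjusted p = 0.747), and its exact permutation p was 0.2. A second probe, well above background in the same numbers of tumours, gave -1.13. The difference was -0.32 with normexp background correction, -0.31 without Ext1S100a4Cre host tumours 1 and 4, -1.14 without Ext1S100a4Cre host tumour 1 and -2.69 without its tumour 3.

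The order of the tumours for Hgf was close to that of macrophage markers, and also to that of T and NK cell markers. The T and NK cell mean was highest in WT host tumour 3 (-0.21), then Ext1S100a4Cre host tumour 3 (-0.86). Its lowest value was in Ext1S100a4Cre host tumour 1 (-4.29). Correlations with marker lists were computed only for the macrophage and fibroblast lists. The mean of 10 macrophage and monocyte markers, such as Adgre1, Csf1r and C1qa, ran from 1.39 to 4.02 in the WT host and from -1.58 to 2.06 in the Ext1S100a4Cre host, with 10 of 10 lower and a median difference of -1.65. Across the 8 tumours it correlated with Hgf at r = 0.97 (exact permutation p = 7.44e-05) and rho = 0.976 (exact permutation p = 0.000397). Adjusted over the 20 relations of 10 members with this list and the fibroblast list, these p-values were 0.00149 and 0.00794 (exact permutation test). Without the 2 tumours farthest from the median, WT host tumour 3 and Ext1S100a4Cre host tumour 1, r was 0.968, and over the 6 tumours with Hgf well above background it was 0.946. With the fibroblast list r was 0.906 (exact permutation p = 0.0028, adjusted 0.028) and rho 0.738 (exact permutation p = 0.0458, adjusted 0.153), and r was 0.613 without those 2 tumours and also 0.613 over the 6 tumours with Hgf well above background. The relation with the fibroblast list did not hold at its size in either set of 6 tumours. The part of these cells in the difference of Hgf was not tested. Of the other 18 relations none had an exact permutation p under 0.05 after adjustment, the smallest adjusted value being 0.0975.

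**Figure D2:**
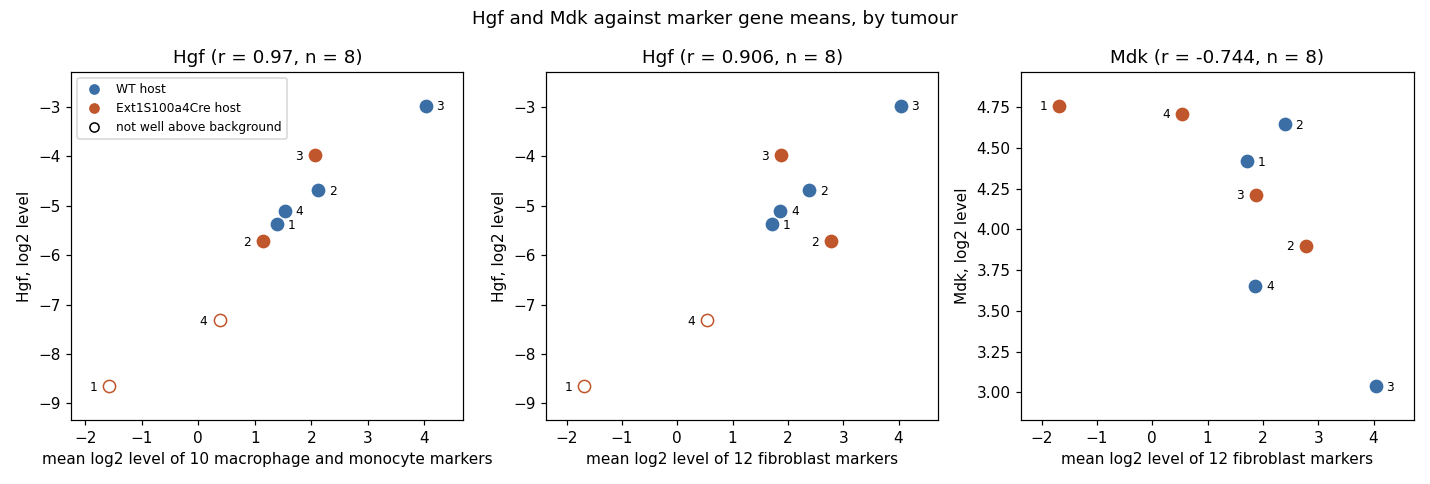
Log2 level of Hgf or Mdk (vertical) against the mean log2 level of a marker list (horizontal), 1 point per tumour with its number, coloured by host, with open points for values not well above background. Hgf lies near a line against macrophage markers (r = 0.97), is more scattered against fibroblast markers (r = 0.906), and Mdk runs the other way (r = -0.744).

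Met, the HGF receptor, had the smallest unadjusted p of the members. It measured -1.65, -1.78, 0.26 and -0.39 in the WT host and -2.21, -2.34, -1.56 and -2.13 in the Ext1S100a4Cre host. All 4 Ext1S100a4Cre host tumours were close together at the low end, and WT host tumours 3 and 4 stood well above the rest. Only the overlap of Ext1S100a4Cre host tumour 3 with WT host tumours 1 and 2 kept the hosts from separating. The means were -0.89 ± 0.99 and -2.06 ± 0.35, a 2.25-fold lower level in the Ext1S100a4Cre host. The difference of -1.17 (SE 0.46, 95% interval -2.23 to -0.10) gave p = 0.0352 by limma (adjusted p = 0.747), while the exact permutation test gave p = 0.0857. The second Met probe gave -0.87 (limma p = 0.0808) and correlated with the first at 0.957. The limma p was 0.0503 for the mean of probes and 0.174 with array weights, where the difference was -0.59. With the slide row as a block the limma p was 0.0058 (adjusted p = 0.634), and with median scaling it was 0.0249 (adjusted p = 0.9035). The difference was -0.56 within slide row 1 and -1.78 within row 2, and -0.78 without WT host tumour 3. Its limma p was above 0.05 when WT host tumour 3 or 4 or Ext1S100a4Cre host tumour 1, 2 or 4 was left out.

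Midkine, often made by tumour cells, had a higher mean in the Ext1S100a4Cre host, and the hosts overlapped. Mdk measured 4.42, 4.64, 3.04 and 3.65 in the WT host and 4.76, 3.90, 4.21 and 4.71 in the Ext1S100a4Cre host. WT host tumours 3 and 4 were the lowest of the 8 and Ext1S100a4Cre host tumours 1 and 4 the highest. The means were 3.94 ± 0.73 and 4.39 ± 0.41, a difference of 0.46 (SE 0.38, 95% interval -0.41 to 1.32, adjusted p = 0.771 in limma, exact permutation p = 0.314). The other 2 probes gave 0.53 and 0.39, and the 3 correlated with each other at 0.988 or more. The difference was -0.20 within slide row 1, 1.12 within row 2 and 0.16 without WT host tumour 3.

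Mdk ran against several other members across the tumours. It correlated with Pdgfc at -0.884, with Met at -0.834 and with the fibroblast marker mean at r = -0.744 (exact permutation p = 0.0341, adjusted 0.105). These values describe 8 tumours that share the 2 extreme ones, and r with the fibroblast mean was -0.471 without those. The labels name the cell type as colon cancer cell. The epithelial markers Epcam, Cdh1, Krt8 and Krt18 were well above background in all 8 tumours. Whole tumours were measured, so which cells made these RNAs was not tested. Over 8 epithelial markers 3 were lower, the median difference was 0.05, and their mean ran from 2.06 to 2.93 in the WT host and from 2.11 to 3.11 in the Ext1S100a4Cre host.

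Pleiotrophin, the relative of midkine, was set apart by 1 tumour in each host. Ptn measured 3.57, 3.30, 3.83 and 4.63 in the WT host and 3.83, 3.84, 3.92 and 2.61 in the Ext1S100a4Cre host. The highest value was that of WT host tumour 4 and the lowest that of Ext1S100a4Cre host tumour 4, and the remaining 6 lay between 3.30 and 3.92. The difference was -0.28 (SE 0.38, 95% interval -1.16 to 0.59, adjusted p = 0.845 in limma) and 0.03 without Ext1S100a4Cre host tumour 4. A second probe gave -0.11, and the difference was 0.40 within slide row 1 and -0.97 within row 2.

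**Figure D3:**
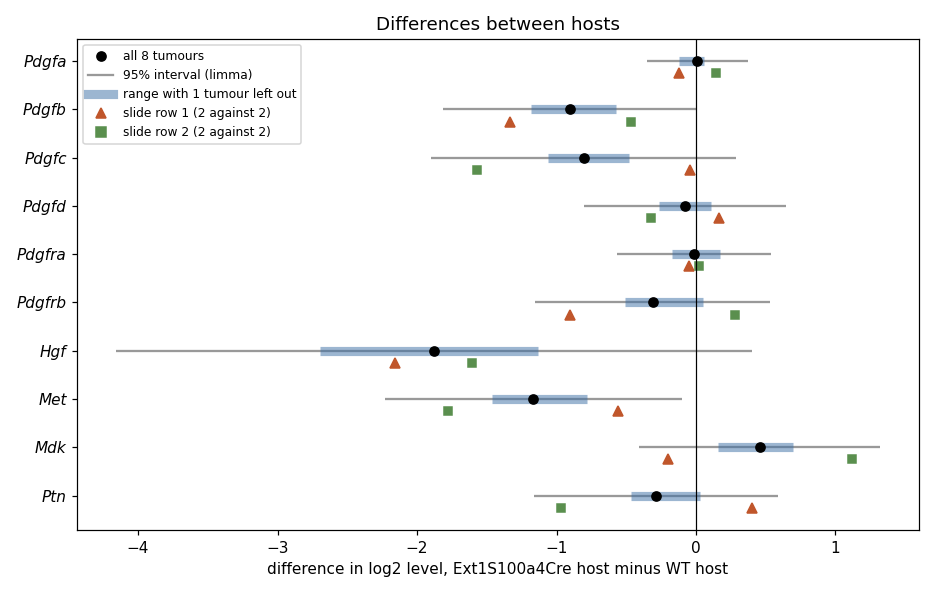
Difference in log2 level between hosts (horizontal, Ext1S100a4Cre host minus WT host) for each gene, with the 95% interval from limma, the range over the 8 fits that leave out 1 tumour, and the values within each slide row. Pdgfb, Pdgfc, Hgf and Met stay below 0 with any tumour left out and in both rows, and only the interval of Met excludes 0.

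The genes closest in pattern to each member over the 8 tumours were sought among 14416 others. For Hgf they were Aoah (Pearson r = 0.992), Maf (0.991) and Cysltr1 (0.987), with differences between hosts of -1.91, -1.35 and -1.27. For Met they were Plekha2 (0.983), Slk (0.98) and Batf (0.975), and for Pdgfb Myadm (0.987), Rasgrp3 (0.985) and Plxnd1 (0.984). Pdgfrb was closest to Carmn (0.981), Gpr176 (0.964) and Nos3 (0.961), and Pdgfc to Peli2 (0.991), Slc39a8 (0.989) and Tpd52 (0.988). Pdgfd was closest to Rab27b (0.982), Scgb2b7 (0.98) and Frmd4b (0.975), and Pdgfa to Nrarp (0.968), Snrnp35 (0.966) and Enc1 (0.966). For Mdk they were Jpt2 (0.993), Fam222b (0.99) and Cdh3 (0.989), and for Ptn Fam185a (0.978), Fzd5 (0.975) and Lrrc49 (0.971). Pdgfra had the loosest matches, Zfp740 (0.918), Wdr45b (0.886) and Sppl2c (0.883). With 8 tumours and so many genes such values are descriptions only.

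Of 40 further genes of these pathways, 2 had unadjusted p under 0.05, both lower in the Ext1S100a4Cre host, and 0 passed after adjustment over all genes in limma. Over all genes 6.55% had such a p and 2.16% were lower with it, so the count for the 40 genes, and the counts of 0 or 1 in each list, are near that background. All 40 were tested, 25 had a lower and 15 a higher mean, and the median difference was -0.11, against 0.05 over all genes. The 2 genes were Ptprz1 and Plau.

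The list of midkine and pleiotrophin receptors and partners had the lowest median of the 4 lists, -0.72, with 6 of 9 genes lower and 1 at unadjusted p under 0.05. Ptprz1, the receptor phosphatase that pleiotrophin and midkine bind, measured -1.91, -1.75, -1.53 and -2.03 in the WT host. It measured -3.58, -2.33, -2.14 and -2.91 in the Ext1S100a4Cre host. Every tumour of this host thus lay below every WT host tumour, as for 1.14% of all genes. Of the 40 pathway genes no other separated the hosts, where 4.52% of all genes did so in either direction. The means of Ptprz1 were -1.80 ± 0.22 and -2.74 ± 0.65, a shift of -0.93 (SE 0.31), with limma's adjusted p at 0.747. Its limma p was 0.0166, and its exact permutation p of 0.0286 is the smallest that 4 against 4 allows. The limma p stayed under 0.05 with any 1 tumour left out. Without Ext1S100a4Cre host tumours 1 and 4 the difference was -0.43, with a limma p above 0.05. The integrin chains Itga6 and Itga4 differed by -0.72 (SE 0.34) and -1.38 (SE 0.67) and the syndecan Sdc3 by -1.03 (SE 0.57), without passing limma's test.

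Of the genes that activate the ligands or inhibit that step, 5 of 9 were lower, with a median of -0.11 and 1 at unadjusted p under 0.05. Plau, which encodes urokinase, a protease able to cleave HGF and PDGF-D, measured -0.36, 0.03, 1.12 and -0.82 in the WT host. It measured -2.81, -0.80, -0.85 and -0.996 in the Ext1S100a4Cre host, where tumour 1 was far below the rest and tumour 2 overlapped WT host tumour 4. The difference of -1.35 (SE 0.56) gave p = 0.0409 by limma (adjusted p = 0.747) and p = 0.0571 by the exact permutation test. It was -0.87 without Ext1S100a4Cre host tumour 1, and its limma p was above 0.05 without that tumour, tumour 4 of that host, or WT host tumour 1, 2 or 3. Hepsin (Hpn), another HGF-activating protease, differed by 0.28 (SE 0.14), the HGF activator inhibitor Spint1 by 0.21 (SE 0.16) and matriptase (St14) by -0.21 (SE 0.16).

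Among relatives of HGF and partners of MET, 4 of 7 genes were lower, with a median of -0.06, and 0 had unadjusted p under 0.05 in limma. The docking protein gene Gab1 differed by -0.68 (SE 0.33), Cd44 by -0.27 (SE 0.19), Nrp1 by -0.72 (SE 0.53) and Mst1, a ligand related to HGF, by 0.41 (SE 0.36). Among adaptors and effectors shared by these receptors, 10 of 15 were lower, with a median of -0.09, and 0 had unadjusted p under 0.05 in limma. Stat3 differed by -0.33 (SE 0.23), Cbl by -0.17 (SE 0.12), Pik3r1 by -0.60 (SE 0.50) and Ptpn11 by 0.17 (SE 0.17).

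**Figure D4:**
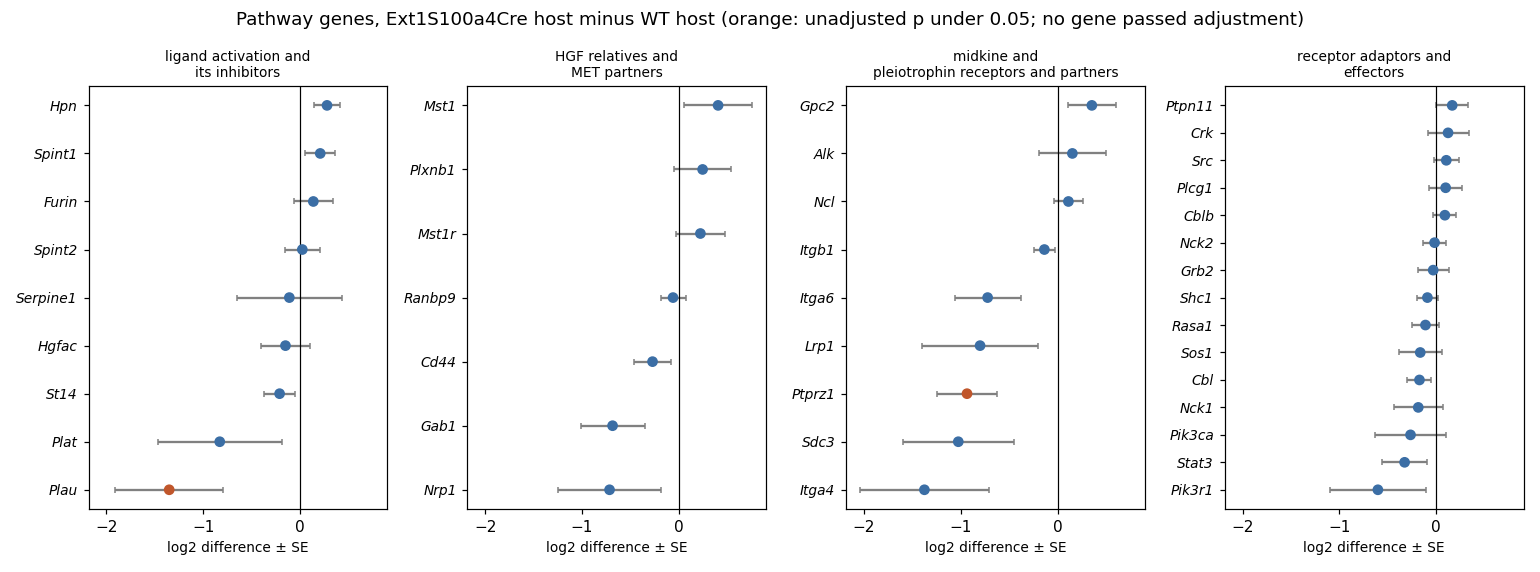
Difference in log2 level between hosts ± SE (horizontal) for the 40 further pathway genes in 4 lists, 1 point per gene, with orange points for unadjusted p under 0.05 in limma. Plau and Ptprz1 are the orange points, and the adaptors and effectors lie between -0.60 and 0.17.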

How the data were processed

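RNA from 8 whole tumours was hybridised to 1-colour Agilent arrays. The deposited scanner files hold linear spot intensity. Per the file headers, Feature Extraction 10.7.3.1 subtracted the background and detrended it, while the submitters' processing notes name Agilent Feature Extraction version 9.1. The deposited flags of 0 or 1 (spots well above background, saturated or outlying) were read beside them. The deposited series matrix repeats this processed intensity without scaling between arrays.

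From these, the processed intensity was put on the log2 scale, and each array's 75th percentile over all spots of the probes that are not controls was subtracted. Outlier spots were left out on their array, and a probe's remaining spots were averaged. Of 56605 probes, the 39716 that exceeded background clearly on 4 or more arrays were kept. A probe was a member's if its accession, without version, is a RefSeq transcript of the gene in a table of assembly GRCm38.p6. The headers name build mm9, so no coordinates are given. A gene with several kept probes was followed by the brightest of them on average. Hosts were compared over 31281 genes and transcripts with the moderated test of limma 3.58.1 under R 4.3.3 (two-sided, no covariate), with Benjamini-Hochberg adjustment over all of them. For single genes an exact permutation test (two-sided) went through all 70 assignments of the tumours to hosts, with 0.0286 as its smallest p. The test was checked on simulated data with independent noise, in which only genes with an SD below the median were shifted. That check does not show how often a change in a more variable gene would be found.

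The members, gene lists and tests were chosen with earlier results of these data known. Every member is named. Of each pathway list, genes of unadjusted p under 0.05 and the 4 with the smallest p are named. For each member the 3 most similar genes are named, by Pearson correlation over the 8 tumours, among genes well above background on all arrays whose symbol is not a clone, model or accession name. The alternatives were normexp background correction (offset 50, on median spot and background intensity), quantile and median scaling, the unscaled series matrix, other filters on dim probes, other probes or their mean, blocks for slide row or replicate number, a robust trended variance, array weights, a threshold of 0.1, and leaving out tumours singly or in pairs. A percentile over probes counted once was added after seeing the data. Array number and brightness over background limit the precision.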

Additional observations from a re-analysis of the deposited data

Results flagged for a closer look

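Of 52 groups of 4 tumours checked, for the 10 members and 16 pathway genes, 4 held a tumour whose gap to its nearest neighbour, as a share of the group's range, was above the 95% critical value of Dixon's test. Chance gives about 1 in 20 groups. For Pdgfa it was WT host tumour 3 (3.54 against 4.06 for the next, share 0.93), without which the difference between hosts was -0.12. For Ptn it was Ext1S100a4Cre host tumour 4 (2.61 against 3.83, share 0.931). For Itga4 it was WT host tumour 3 (1.27 against -0.61, share 0.955). For Plau it was Ext1S100a4Cre host tumour 1 (-2.81 against -0.996, share 0.9).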

How the results depend on the processing

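Pdgfb, Pdgfc, Hgf and Met had a lower mean in the Ext1S100a4Cre host under every alternative run, with ranges of -1.34 to -0.37, -1.57 to -0.04, -3.45 to -0.31 and -1.78 to -0.56. No member passed an adjusted p of 0.05 in limma under any alternative, the smallest value being 0.281, and with a threshold of 0.1 in place of 0.05 the count over all genes was still 0. Pdgfa turned to -0.0036 with normexp, -0.0876 with quantile scaling, -0.24 in the unscaled series matrix, -0.0175 with the mean of probes, -0.10 with array weights, -0.0453 with its second probe and -0.12 within slide row 1. Pdgfd turned to 0.0473 with normexp and 0.17 within row 1, and Pdgfra to 0.0129 with median scaling and 0.0182 within row 2. Within row 1, Pdgfc was -0.0424, Pdgfrb -0.90, Mdk -0.20 and Ptn 0.40, and within row 2 they were -1.57, 0.28, 1.12 and -0.97. With 1 tumour left out, Pdgfa ran from -0.12 to 0.0602, Pdgfd from -0.27 to 0.11, Pdgfra from -0.17 to 0.17, Pdgfrb from -0.51 to 0.0495 and Ptn from -0.46 to 0.0288. Without Ext1S100a4Cre host tumours 1 and 4, Pdgfd was 0.46, Pdgfra 0.27 and Ptn 0.0458. Without WT host tumour 3 and Ext1S100a4Cre host tumour 1, Pdgfa was -0.10, Pdgfd 0.21, Pdgfra 0.0132 and Pdgfrb 0.11.

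The 1 member at unadjusted p under 0.05, Met, was joined by Pdgfb, making 2, with normexp, quantile and median scaling, the series matrix, the slide row as a block, a trended and robust variance, the percentile over probes counted once, and a filter requiring all 8 arrays, which left Hgf untested. Under these settings 5.39% to 8.72% of all genes had such a p, against 6.55% as reported. The count was 0 with the mean of probes (6.43% of all genes), 3 (Hgf, Pdgfc, Pdgfd) without Ext1S100a4Cre host tumours 2 and 3 (17.1%), 0 without WT host tumour 3 and Ext1S100a4Cre host tumour 1 (5.51%), and 0 to 2 with 1 tumour left out (4.68% to 9.48%). It was 0 without WT host tumour 3 or 4 or Ext1S100a4Cre host tumour 1 or 2. With array weights it was 1, Hgf in place of Met (10.5% of all genes), and without Ext1S100a4Cre host tumours 1 and 4 it was 1, Pdgfb (5.82%). Members without overlap numbered 0 to 2 with 1 tumour left out, where 6% to 12% of all genes did not overlap, and 1 (Pdgfb) in the series matrix (4.84%). They numbered 2 without Ext1S100a4Cre host tumours 1 and 4 (13.8% of all genes), 5 without its tumours 2 and 3 (37.2%), and 1 without WT host tumour 3 and Ext1S100a4Cre host tumour 1 (11.2%). Genes called over the whole table numbered 1 with normexp, 1 with array weights, 0 to 2 with 1 tumour left out, 11 without Ext1S100a4Cre host tumours 1 and 4, and 3 without WT host tumour 3 and Ext1S100a4Cre host tumour 1. The 11 genes included Acta1, Actn3, Mb and Tnnc2 of the skeletal muscle list. That list averaged 0.13 and 0.96 in Ext1S100a4Cre host tumours 2 and 3, the tumours of that host kept in the fit. The cause of these changes was not tested.

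With the replicate number as a block, 3 members had unadjusted p under 0.05 (Hgf, Met, Pdgfb) and 10.4% of all genes did. The labels do not say that the numbers pair tumours, and same-numbered tumours deviated from their host means with correlations of 0.493, -0.162, 0.59 and -0.245. The unscaled series matrix moved the median difference of all genes from 0.05 to -0.20. Of genes at unadjusted p under 0.05, 33% were lower in the Ext1S100a4Cre host, against 14.8% with normexp, 43.1% with median scaling, 93.6% in the series matrix and 51% with the replicate block.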
